A study of Mus musculus with 24 samples.

Results

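The subject here is how the effect of toosendanin on microRNAs in serum exosomes differed between 9 and 3 days of dosing. Toosendanin (TSN) is a triterpenoid of Melia plants that is toxic to the liver, and miRNA was measured on one-colour arrays, 4 per group. The change of effect was the difference of differences, TSN day 9 minus control (CON) day 9, less TSN day 3 minus CON day 3. The groups were male BALB/c mice given 80 mg/kg TSN for 9 days, their vehicle controls of 9 days, mice given the same dose for 3 days, and their vehicle controls of 3 days. Serum was taken 24 hours after the last dose. These groups make up 16 of the 24 arrays of the series, whose other arrays are from day 21. The labels name no genotype, give no age, and do not say whether an array held 1 animal or a pool. Every miRNA that was not a control spot belonged to the comparison, 1881 in all. The scanner software says of each spot whether its signal stood clear of the background, and a miRNA for which it did is called detected, or measured, below. The 444 miRNAs detected throughout at least 1 group were tested, 154 were detected on all 16 arrays, and 1356 were detected on no array of the 4 groups.

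A miRNA is a short RNA that guides a silencing complex to matching sites in messenger RNAs, mostly through its seed, the stretch of bases behind its first base. Exosomes are small vesicles that cells release into blood, and the miRNAs in serum come mainly from blood cells, with smaller contributions from vessels, liver and muscle. Some miRNAs are nearly specific to a tissue, so their level in serum is used as a sign of release from that tissue. The series title names miR-106b-5p and its target vimentin in the adaptive response to liver injury. The array holds no vesicle proteins, so the exosome label could not be checked against its usual markers.

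The mature sequences below, from RefSeq on GRCm38.p6, are shown so that miRNAs with the same seed can be compared in the results that follow. Capitals mark the seed, bases 2 to 8, and 373 of the 444 tested miRNAs matched a single RefSeq mature sequence. The first pair comes from the miR-106b-25 cluster and the second pair from the related miR-17 cluster.
miR-106b-5p: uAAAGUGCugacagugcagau
miR-93-5p: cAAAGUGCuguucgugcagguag
miR-17-5p: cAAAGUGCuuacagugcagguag
miR-20a-5p: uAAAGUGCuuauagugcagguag
The third member of the miR-106b-25 cluster has another seed, which it shares with miR-92a-3p of the miR-17 cluster.
miR-25-3p: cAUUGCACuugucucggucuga
miR-92a-3p: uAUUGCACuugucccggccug
The next pair lies side by side in 1 cluster on chromosome 14, and miR-16-5p has another gene on chromosome 3.
miR-15a-5p: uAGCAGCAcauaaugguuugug
miR-16-5p: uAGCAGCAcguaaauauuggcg
The last 5 had a lower change of effect at day 9, as described further on.
miR-26a-5p: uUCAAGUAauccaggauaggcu
miR-26b-5p: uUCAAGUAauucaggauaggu
let-7e-5p: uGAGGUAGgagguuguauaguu
let-7f-5p: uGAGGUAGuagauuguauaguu
miR-142a-3p: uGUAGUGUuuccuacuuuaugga
From the 5′ end, miR-106b-5p had the same base as miR-93-5p at 16 of 21 positions, and as miR-17-5p at 18 of 21. miR-26a-5p and miR-26b-5p shared 19 of 21, and let-7e-5p and let-7f-5p 20 of 22. Cross-hybridisation between such close sequences was not tested.

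All levels are log2 of the signal over each array's 75th percentile, taken over the 261 probes detected on all 24 arrays, with a floor at -6.21. A change of effect is a log2 difference of such levels with its standard error (SE), from 1 limma fit with Benjamini-Hochberg adjustment over the 444 miRNAs. The effect changed at an adjusted threshold of 0.05 for 84 of the 444 miRNAs (18.9%). It was higher at day 9 for 17 (3.83%) and lower for 67 (15.1%). At an unadjusted 0.05, 151 miRNAs (34%) passed. Among the 154 measured on all 16 arrays, 35 passed (22.7%). The median change over all 444 was -0.27, with medians of -0.17 for TSN day 9 minus TSN day 3 and 0.04 for CON day 9 minus CON day 3.

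The balance of higher and lower calls depended on how arrays were scaled. With the 75th percentile over all probes, 31 were higher and 4 lower. Quantile normalization gave 31 and 36, 4 spike-in probes 16 and 6, and unscaled values 13 and 8. The authors' own processed values gave 26 higher and 15 lower, while normexp background correction and the software's total gene signal each gave 7 and 13. Scaling by the median of the miRNAs measured on all 16 arrays, a choice made after seeing the data, gave 69 and 29. Relative to the main scaling, these settings moved the median change over all miRNAs by 0.41, 0.25, 0.42, 0.47, 0.29, -0.24, 0.00 and 0.31 in the order given. A direction below is therefore relative to each array's 75th percentile. Of the 34 called miRNAs named here by a fixed rule, 31 kept their sign under every one of these settings, and the other 3 are marked. That rule mostly picked the largest changes, so the kept signs do not speak for the other calls. Of all 84 calls, between 7 (no scaling) and 46 (median scaling) were kept in these settings.

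**Figure D1:**
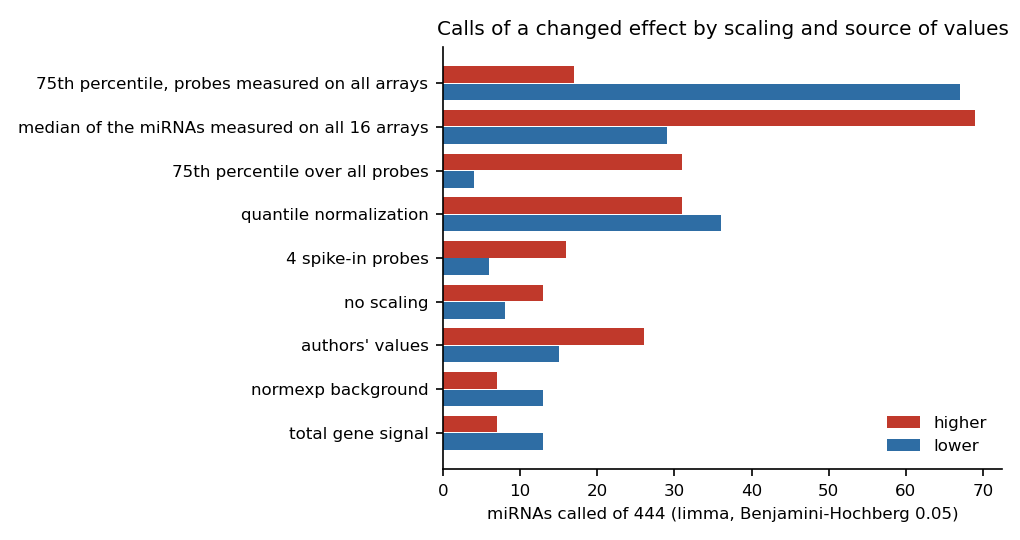
Number of miRNAs called of 444 (horizontal axis, limma with Benjamini-Hochberg adjustment at 0.05), red for a higher and blue for a lower change of effect, for 9 ways of scaling or obtaining the values. The main scaling at the top called 17 higher and 67 lower, and the 75th percentile over all probes called 31 and 4.

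Both control days were hybridised on 1 slide, the TSN day 3 arrays on another and the TSN day 9 arrays on yet another, so in the TSN arm day and slide cannot be told apart. The slides of the TSN days shared a scan date, and the control slide had its own. Before scaling, the log2 75th percentile averaged 10.57 ± 0.146 on TSN day 9 arrays, 7.01 ± 0.841 on CON day 9 arrays, 10.14 ± 0.453 on TSN day 3 arrays and 7.29 ± 0.564 on CON day 3 arrays (SD, n = 4 each). The gap in brightness between the arms was thus wider at day 9 by 0.71, or 1.63-fold, which did not pass an exact two-sided permutation test of the day labels within each arm (p = 0.214, adjusted p = 0.571 over 8 array measures). Without CON day 9 replicate 3, the brightest control array of the 4 groups, it was 1.103 (exact permutation p = 0.0278). The numbers of detected miRNAs averaged 440 on TSN day 9 arrays, 221 on CON day 9 arrays, 434 on TSN day 3 arrays and 236 on CON day 3 arrays, a change of 21.5 (exact permutation p = 0.579). The log2 labelling spike-ins averaged 10.34 on TSN day 9 arrays, 8.53 on CON day 9 arrays, 10.34 on TSN day 3 arrays and 8.59 on CON day 3 arrays. They were thus dimmer on control arrays at both days, and this gap changed by 0.06 (exact permutation p = 0.870). The share of tested miRNAs at the floor changed by 6.02 percentage points (exact permutation p = 0.0273, adjusted p = 0.219). The part of these measures in the results that follow was not tested.

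The change splits into a TSN part, day 9 minus day 3 in treated mice, and a control part, the same difference in vehicle mice. The log2 percentile used for scaling averaged 10.57 at day 9 and 10.14 at day 3 in the TSN arm, and 7.01 and 7.29 in controls. Both parts depend on this scaling and were not compared under another. For the 17 miRNAs with a higher change, the TSN part was above 0 in all 17 and the control part below 0 in 11. Levels on the 4 TSN day 9 arrays lay above all 4 TSN day 3 arrays for 14 of the 17 (9.68% of all tested miRNAs did so), and CON day 9 lay below CON day 3 without overlap for 2 (5.41% of all tested). For the 67 with a lower change, the TSN part was below 0 in all 67 and the control part above 0 in 58. The TSN groups were apart in that direction for 42 of these (18.9% of all tested), and CON day 9 lay above CON day 3 without overlap for 23 (12.4% of all tested). Since the call itself is built from both parts, these counts describe the called miRNAs and support nothing further. Among the higher calls the effect widened for 8, narrowed towards 0 for 3 and changed sign for 6. Among the lower calls it widened for 21, narrowed for 12 and changed sign for 34. These courses were read from the group means under the main scaling, without regard to their SE. Where an effect of 0 lies on each day depends on the scaling, and the courses were not counted in other settings.

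**Figure D2:**
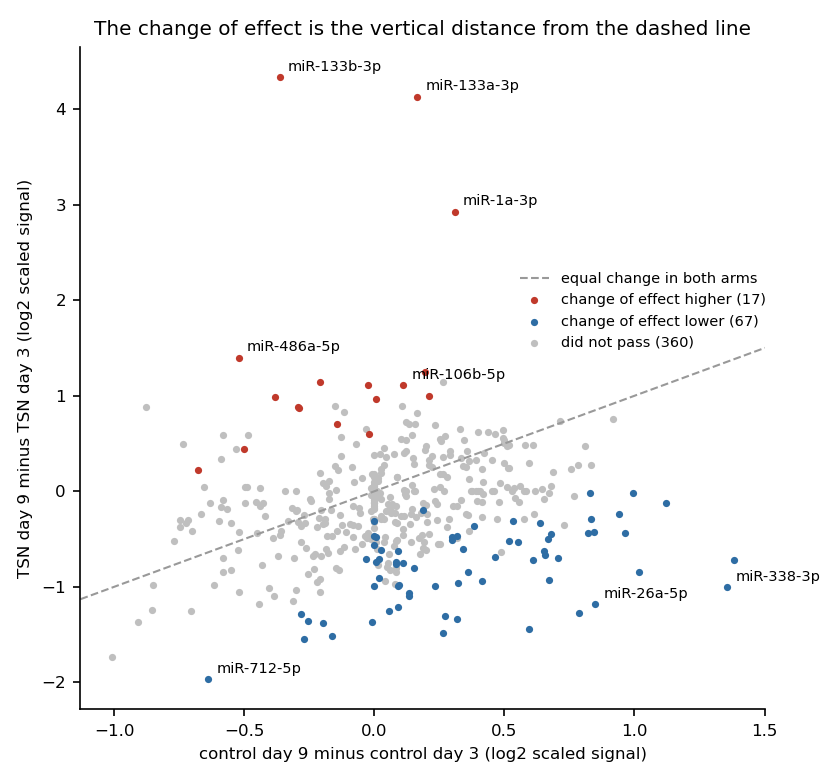
Each point is 1 of the 444 tested miRNAs, with TSN day 9 minus TSN day 3 on the vertical axis and CON day 9 minus CON day 3 on the horizontal axis, both as log2 differences of scaled signal. The 17 higher calls (red) lie above the dashed line of equal change and the 67 lower calls (blue) below it, with the muscle miRNAs far above the rest.

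All 3 members of the miR-106b-25 cluster that could be tested had a higher change of effect (3 of 3, against 3.83% of all tested), with a median of 1.13. The other 3 strands of the cluster on the array were too dim to be tested. The cluster lies within the span of Mcm7, a gene of the DNA replication helicase, on the reverse strand of chromosome 5. Its mature miRNAs miR-106b-5p (chr5:138165787-138165807), miR-93-5p (chr5:138165574-138165596) and miR-25-3p (chr5:138165332-138165353) are known repressors of cell cycle inhibitors. The first was at 1.51, 1.59, 1.13 and 1.31 on the TSN day 9 arrays and at -1.37, -0.48, -1.10 and -0.99 on the CON day 9 arrays. At day 3 it was at 0.45, -0.04, 0.10 and 0.58 on the TSN arrays and at -1.07, -0.97, -0.85 and -1.49 on the CON arrays. The TSN day 9 arrays stood above all 4 TSN day 3 arrays, while the control days overlapped. For miR-106b-5p the change of effect was 1.00 (SE 0.267, adjusted p = 0.0119), a 2.00-fold widening, made of a TSN part of 1.11 and a control part of 0.11.

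Its neighbour miR-93-5p was at -0.01, 0.06, -0.25 and 0.00 on TSN day 9 arrays and at -1.46, -0.63, -1.31 and -1.09 on CON day 9 arrays. The day 3 levels were -1.06, -1.58, -1.17 and -0.81 on TSN arrays and -1.10, -0.97, -0.89 and -1.43 on CON arrays. Only the TSN day 9 arrays stood apart among these 4 groups, and the change was 1.13 (SE 0.256, adjusted p = 0.00425). For miR-25-3p, TSN day 9 arrays gave 1.05, 0.98, 0.90 and 1.03 and CON day 9 arrays -0.86, -0.02, -0.25 and -0.53. TSN day 3 arrays gave 0.09, -0.77, -0.30 and 0.36 and CON day 3 arrays -0.20, -0.23, 0.03 and -0.43. Again TSN day 9 was above the other 3 groups without overlap, with a change of 1.35 (SE 0.307, adjusted p = 0.00425), or 2.56-fold. The calls of miR-93-5p and miR-25-3p were lost with the 4 spike-in probes and with no scaling. The call of miR-106b-5p was lost in those settings, with quantile normalization and with no filter on dim miRNAs.

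Of the 9 tested members of the related miR-17 and miR-106a clusters, miR-17-5p, miR-20a-5p, miR-20b-5p and miR-92a-3p share a seed with the miR-106b-25 cluster. In limma 0 of the 9 passed (18.9% of all tested). Only miR-92a-3p passed at an unadjusted 0.05 (34% of all tested). The median change was 0.07, turning sign without CON day 9 replicate 3 (-0.01) or CON day 3 replicate 2 (-0.03), and the median of all tested miRNAs was -0.27. For miR-92a-3p, which has the seed of miR-25-3p, the value was 0.57 (SE 0.255, adjusted p = 0.117), and it passed with array weights (adjusted p = 0.0303) and with median scaling (adjusted p = 0.0244). The levels of miR-20a-5p were 0.83, 0.83, 0.38 and 0.52 on TSN day 9 arrays, against -0.20, 0.11, -0.33 and -0.01 on CON day 9 arrays. At day 3 they were 0.00, -0.07, 0.23 and 0.16 on TSN arrays, against -0.60, -0.32, -0.66 and -0.82 on CON arrays. Both arms were higher at day 9, by 0.56 in the TSN part and 0.49 in the control part, which left a change of 0.07 (95% interval -0.37 to 0.50). For miR-17-5p the change was 0.28 (95% interval -0.14 to 0.70), detected on 1 of 8 control arrays. Over all 5 tested miRNAs with the seed of miR-106b-5p, 2 passed (18.9% of all tested) and the median change was 0.28. The difference between the 2 groups of clusters was not itself tested.

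**Figure D3:**
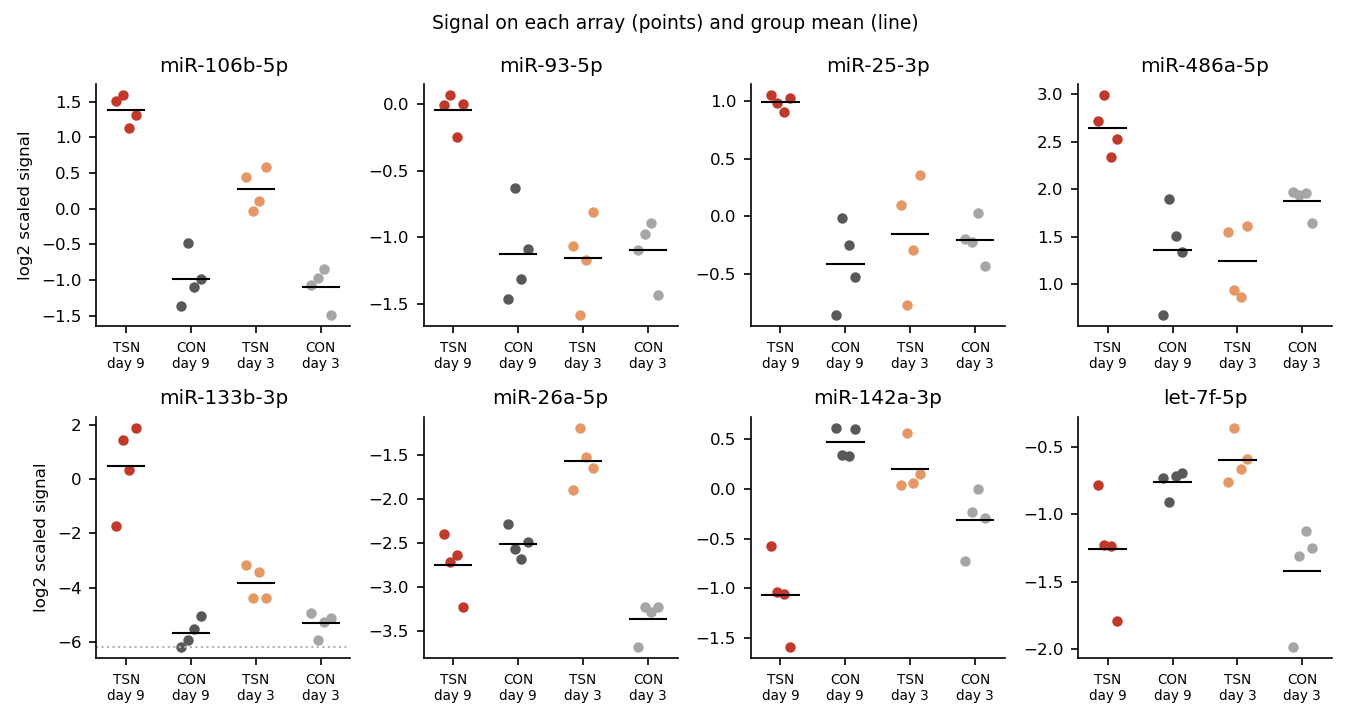
Log2 scaled signal (vertical axes, which differ between panels) on each array as points, with the group mean as a line, for TSN day 9, CON day 9, TSN day 3 and CON day 3. In the cluster panels TSN day 9 stands above the other groups, in the miR-26a-5p panel TSN day 9 lies near CON day 9 while TSN day 3 lies far above CON day 3, and the dotted line marks the floor at -6.21.

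Of the 7 tested members of the erythroid list, miRNAs abundant in red cells, 4 had a higher change of effect (3.83% of all tested), none a lower one, and the list median was 1.05. miR-486a-5p, made from an intron of the red cell ankyrin gene Ank1, was at 2.71, 2.99, 2.34 and 2.53 on TSN day 9 arrays and at 0.68, 1.90, 1.51 and 1.34 on CON day 9 arrays. TSN day 3 arrays held 1.55, 0.94, 0.87 and 1.61 and CON day 3 arrays 1.97, 1.94, 1.97 and 1.64. Its TSN arrays were below all 4 controls at day 3 and above all 4 at day 9. The change was 1.92 (SE 0.305, adjusted p = 0.000289), or 3.78-fold, and of the settings compared its call was lost only with no scaling. The passenger strands miR-486b-3p (1.17, SE 0.278, adjusted p = 0.00541) and miR-486a-3p (1.16, SE 0.308, adjusted p = 0.0119) passed as well, though on CON day 9 they were detected on only 1 and 2 of 4 arrays. For miR-486b-3p the sign turned with the software's total gene signal. On TSN day 9 arrays miR-486a-3p was at -4.34, -4.22, -4.51 and -4.26, and miR-486b-3p at -4.34, -4.31, -4.51 and -4.31. Cross-hybridisation between these passenger strands was not tested, so their calls may not be separate readings.

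miR-16-5p, abundant in red cells, had levels of 1.56, 1.48, 1.41 and 1.75 on TSN day 9 arrays and 1.12, 2.12, 1.44 and 1.62 on CON day 9 arrays. At day 3 the TSN arrays held 0.28, 0.05, 0.26 and 0.62 and the CON arrays 1.34, 1.49, 1.67 and 1.03. TSN arrays were the low group at day 3 and overlapped their controls at day 9, for a change of 1.05 (SE 0.256, adjusted p = 0.0063). Neither miR-451a, the most abundant miRNA of red cells, nor miR-144-3p from the same cluster passed. miR-451a was at 6.34, 6.22, 6.01 and 6.14 on TSN day 9 arrays, against 4.83, 5.82, 5.45 and 5.37 on CON day 9 arrays. On TSN day 3 arrays it was at 5.11, 5.07, 4.59 and 5.36, against 4.69, 5.22, 5.59 and 4.92 on CON day 3 arrays. Its change was 0.88 (SE 0.331, adjusted p = 0.0674), and that of miR-144-3p 0.95 (SE 0.342, adjusted p = 0.0583). miR-144-5p, from the other arm of the same precursor, had the opposite sign at -0.38 (SE 0.426, adjusted p = 0.558). The summed linear level of the 7 erythroid miRNAs, per array relative to its 75th percentile, was 75.1 to 94.7 on TSN day 9 arrays and 33.3 to 66.0 on CON day 9 arrays. It was 28.3 to 48.1 on TSN day 3 arrays and 33.3 to 57.1 on CON day 3 arrays. Serum holds miRNA released when red cells break, and the part of such release in any other result was not tested. More vesicles of a source and more of a miRNA per vesicle cannot be told apart in these extracts.

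miR-15a-5p, whose seed is that of miR-16-5p and which restrains cell cycle genes, had a change of 0.96 (SE 0.29, adjusted p = 0.0232). Its call was lost without TSN day 9 replicate 2, CON day 9 replicate 1 or TSN day 3 replicate 2, and in 7 of 16 settings of the processing, the authors' values among them. In the whole miR-15/16 family, 2 of 6 tested members were higher and 1 lower (3.83% and 15.1% of all tested), and the median was 0.53. The lower one was miR-322-5p, whose gene lies in another cluster, at -0.96 (SE 0.262, adjusted p = 0.014). A shared seed therefore did not go with a shared direction in this family.

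The largest changes belonged to striated muscle miRNAs, which regulate muscle differentiation and are released when muscle fibres or heart cells are damaged. Of 8 on the list, 4 were tested, 3 of these were higher (3.83% of all tested) and the other 4, miR-206-3p, miR-208a-3p, miR-208b-3p and miR-499-5p, were detected on no array. miR-133b-3p was at -1.71, 1.46, 0.33 and 1.90 on TSN day 9 arrays and at -3.18, -4.39, -3.41 and -4.38 on TSN day 3 arrays, without overlap. It was detected on no control array, where the signals were -6.21, -5.93, -5.52 and -5.05 at day 9 and -4.94, -5.93, -5.27 and -5.11 at day 3. The TSN part of 4.34 was thus measured, whereas the change of 4.70 (SE 0.823, adjusted p = 0.000637) contains a control part with no measured size. miR-133a-3p behaved alike, with a TSN part of 4.13 and a change of 3.97 (SE 0.755, adjusted p = 0.00108), detected on 3 of 4 TSN day 3 arrays and no control array. Its TSN day 9 levels of -3.45, -0.52, -0.86 and -0.13 put the arrays in the same order as those of miR-133b-3p. Cross-hybridisation between miR-133a-3p and miR-133b-3p was not tested, so their calls may not be separate readings. miR-1a-3p had a TSN part of 2.93 and a change of 2.62 (SE 0.617, adjusted p = 0.00528), detected on 1 of 8 control arrays. Within TSN day 9, replicate 1 had the lowest level of all 3. miR-378a-3p, which metabolic tissues other than muscle also make, was at -0.24 (SE 0.677, adjusted p = 0.854). The summed linear level of the 4 tested muscle miRNAs was 0.575 to 4.99 on TSN day 9 arrays and 0.108 to 0.203 on CON day 9 arrays. The sums were 0.171 to 0.358 on TSN day 3 arrays and 0.0915 to 0.171 on CON day 3 arrays.

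No liver-enriched miRNA passed in limma, 0 of 7 tested at the adjusted threshold (18.9% of all tested), and 1 of the 7, miR-101a-3p, at an unadjusted 0.05. miR-122-5p, the main miRNA of hepatocytes and a serum marker of liver injury, was at -3.87, -2.34, -3.81 and 0.97 on TSN day 9 arrays and at -4.98, -4.01, -4.30 and -2.78 on CON day 9 arrays. At day 3 it was at -3.44, -3.62, -1.59 and -3.91 on TSN arrays and at -2.89, -4.16, -3.03 and -2.49 on CON arrays. TSN day 9 replicate 4 alone was far above its group, and the change was 1.75 with a 95% interval from -0.63 to 4.14 (adjusted p = 0.282). The kidney, gut and liver miRNA miR-192-5p had its highest level, 1.40, on the same array, and its change was 1.04 (95% interval -0.44 to 2.53, adjusted p = 0.302). For miR-101a-3p the value was 0.61 (SE 0.24, adjusted p = 0.0819). It passed with the 75th percentile over all probes (adjusted p = 0.00516), quantile normalization (adjusted p = 0.0057), the authors' values (adjusted p = 0.00934), median scaling (adjusted p = 0.0129) and without CON day 3 replicate 4 (adjusted p = 0.0337). The SD of miR-122-5p was 2.27 on TSN day 9 arrays, against 0.923 on CON day 9, 1.05 on TSN day 3 and 0.715 on CON day 3 arrays. The intervals of miR-122-5p and miR-192-5p include both 0 and a severalfold widening.

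Among the other miRNAs with a higher change, miR-140-3p, best known from cartilage, was at 0.85 (SE 0.142, adjusted p = 0.00046) and miR-30a-5p, of a family found in many epithelia, at 0.79 (SE 0.189, adjusted p = 0.00593). miR-140-3p was at -0.72, -0.43, -0.80 and -0.69 on TSN day 9 arrays and at -0.83, -0.80, -0.59 and -0.82 on CON day 9 arrays. On TSN day 3 arrays it was at -1.25, -1.35, -1.36 and -1.48, below all CON day 3 arrays at -0.79, -0.47, -0.46 and -0.76. The other 4 tested members of the miR-30 family lay between -0.09 and 0.02. miR-6931-5p (1.37, SE 0.402, adjusted p = 0.0203) lost its call without TSN day 3 replicate 4 and in 6 of 16 settings, and miR-7040-5p (0.90, SE 0.27, adjusted p = 0.0232) without TSN day 9 replicate 4 or CON day 3 replicate 3 and in 7 of 16. miR-5103 was at the floor on all 4 CON day 9 arrays and 3 of 4 CON day 3 arrays, so its change of 0.61 has no measured size, and its sign turned under normexp correction and with the total gene signal.

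**Figure D4:**
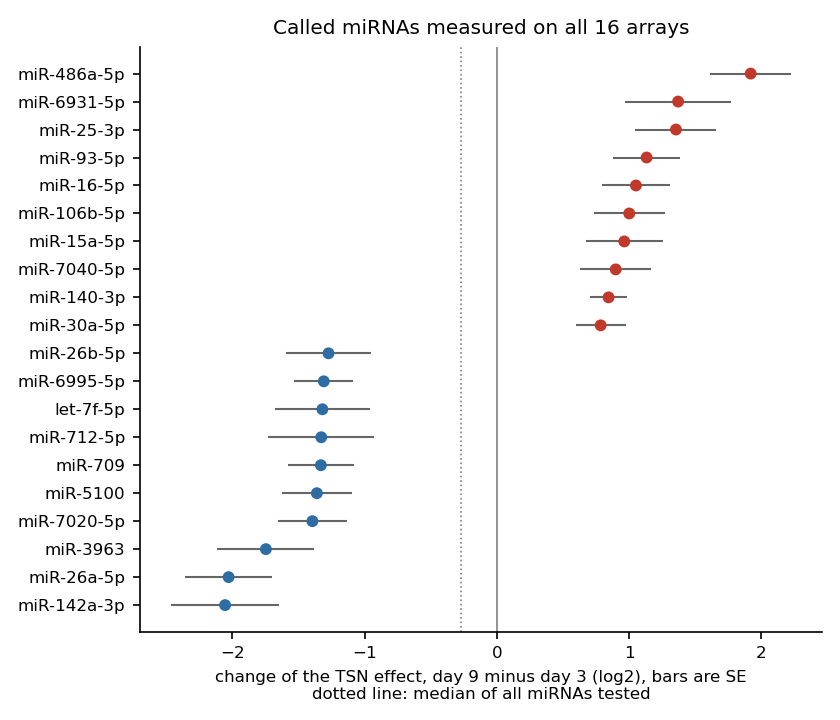
Change of the TSN effect, day 9 minus day 3, on the log2 scale (points) with its SE (bars) for the 10 highest and 10 lowest called miRNAs among those measured on all 16 arrays. The values run between 1.92 for miR-486a-5p and -2.05 for miR-142a-3p, and the dotted line marks the median of all tested miRNAs at -0.27.

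The lowest changes measured on all 16 arrays were those of miR-142a-3p, a miRNA of blood cells, and of miR-26a-5p. miR-142a-3p was at -0.57, -1.04, -1.06 and -1.60 on TSN day 9 arrays and at 0.61, 0.34, 0.33 and 0.60 on CON day 9 arrays. TSN day 3 arrays held 0.04, 0.56, 0.05 and 0.15, against -0.73, -0.23, 0.00 and -0.30 on CON day 3 arrays. The TSN arrays were thus above the controls at day 3 and below them at day 9, with no overlap at either day. The change was -2.05 (SE 0.407, adjusted p = 0.00143), with a TSN part of -1.27 and a control part of 0.79. Its partner strand miR-142a-5p also passed at -0.84 (SE 0.246, adjusted p = 0.0203). Of 7 tested leukocyte miRNAs these 2 were lower (15.1% of all tested) and none higher, and the median of -0.13 turned positive with the 75th percentile over all probes, spike-ins, no scaling or the total gene signal and was -0.07 without TSN day 3 replicate 2. miR-223-3p of neutrophils and platelets was at -0.50 (adjusted p = 0.165) and miR-150-5p of lymphocytes at 0.13 (adjusted p = 0.854).

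miR-26a-5p, which restrains cell growth, was at -2.40, -2.72, -2.64 and -3.22 on TSN day 9 arrays and at -2.29, -2.57, -2.67 and -2.49 on CON day 9 arrays. At day 3 it was at -1.90, -1.19, -1.52 and -1.65 on TSN arrays and at -3.68, -3.23, -3.28 and -3.23 on CON arrays. The arms overlapped at day 9 and were far apart at day 3. The change was -2.03 (SE 0.332, adjusted p = 0.00037), or 0.245 times, with a TSN part of -1.18 and a control part of 0.85. miR-26b-5p, with the same seed, changed by -1.27 (SE 0.325, adjusted p = 0.00933), under the main scaling mostly through its control part of 0.84, the TSN part being -0.43. Its call was lost in 8 of the settings compared, among them the authors' values.

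The let-7 family, which blocks growth genes and rises as cells mature, had 4 of 9 tested members lower (15.1% of all tested) and none higher, with a median of -0.68 that turned positive with spike-ins or no scaling. let-7f-5p was at -0.78, -1.23, -1.23 and -1.79 on TSN day 9 arrays and at -0.73, -0.91, -0.72 and -0.69 on CON day 9 arrays. Its day 3 levels were -0.77, -0.36, -0.67 and -0.59 on TSN arrays and -1.99, -1.31, -1.13 and -1.25 on CON arrays. It changed by -1.32 (SE 0.361, adjusted p = 0.0141), a call lost in 8 of 16 settings, among them the authors' values, normexp, the total gene signal and median scaling. Under the main scaling the control part of 0.66 was as large as the TSN part of -0.66, and the 4 CON day 9 arrays stood above all 4 CON day 3 arrays. let-7a-5p (-1.13, adjusted p = 0.0232) and let-7c-5p (-1.12, adjusted p = 0.0143) passed too. let-7e-5p was at the floor on all 4 TSN day 9 arrays and detected on no control array, so its change of -1.86 (adjusted p = 0.000289) has no measured size. let-7b-5p, let-7d-5p, let-7g-5p, let-7i-5p and miR-98-5p lay between -0.68 and -0.13 and did not pass. All 9 share 1 seed and differ at few bases.

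miR-21a-5p, an abundant miRNA raised in many injured tissues, changed by -1.02 (SE 0.265, adjusted p = 0.0109), under the main scaling almost wholly through its controls. It was at 3.12, 2.88, 2.82 and 2.90 on TSN day 9 arrays and at 3.63, 3.45, 3.17 and 3.66 on CON day 9 arrays. On TSN day 3 arrays it was at 2.67, 2.93, 3.35 and 2.87, and on CON day 3 arrays at 2.48, 2.85, 2.20 and 2.39. The TSN part was -0.02 and the control part 0.99, and its call was lost with quantile normalization, the authors' values and 7 other settings. miR-21a-5p, miR-26a-5p and miR-103-3p (-1.16, adjusted p = 0.0141) were the 3 lower miRNAs among 7 tested from the platelet list (15.1% of all tested), none was higher, and the list median of -0.50 turned positive with the 75th percentile over all probes, spike-ins or no scaling. The endothelial miR-126a-3p was at -0.75 (SE 0.26, adjusted p = 0.0494), a call lost when any of 12 of the 16 arrays was left out. It was 1 of 6 tested vascular miRNAs to pass (18.9% of all tested). The median of that list, -0.51, turned positive in the same 3 settings. The summed linear level of the 7 platelet miRNAs was 10.1 to 12.2 on TSN day 9 arrays and 12.0 to 16.4 on CON day 9 arrays. It was 9.70 to 14.7 on TSN day 3 arrays and 6.94 to 10.2 on CON day 3 arrays, and the part of platelet RNA in these changes was not tested.

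Entries with late miRBase numbers (3000 and above) were mostly added by deep sequencing and have few known functions. Together 28 of 198 tested were lower, a share of 14.1% that is near the 15.1% of all tested miRNAs. Of the 5p entries 2 were higher and 16 lower of 113 tested, of the 3p entries 0 and 1 of 26, and of entries without an arm 1 and 11 of 59, against 3.83% and 15.1% of all tested. Their medians were -0.28, -0.42 and -0.44, each of which turned positive in at least the spike-in and unscaled settings. miR-3963 was at 2.50, 2.02, 3.31 and 2.84 on TSN day 9 arrays and at 2.82, 2.85, 3.42 and 3.82 on CON day 9 arrays. On day 3 it was at 3.99, 4.75, 3.78 and 4.06 on TSN arrays and at 3.41, 2.80, 2.77 and 2.88 on CON arrays. TSN arrays were above all controls at day 3 and overlapped them at day 9, for a change of -1.75 (SE 0.367, adjusted p = 0.00234). miR-5100 changed by -1.36 (SE 0.263, adjusted p = 0.00116) with a control part of -0.01, so that nearly all of it was the TSN part of -1.37. miR-7020-5p changed by -1.39 (SE 0.258, adjusted p = 0.00108) mostly through a control part of 0.96, and miR-6995-5p by -1.31 (SE 0.222, adjusted p = 0.000476) mostly through a TSN part of -1.25. The splits of miR-5100, miR-7020-5p and miR-6995-5p are those of the main scaling only.

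miR-709, one of the brightest signals on these arrays, was at 3.49, 3.04, 3.79 and 3.02 on TSN day 9 arrays and at 5.47, 4.98, 5.66 and 5.46 on CON day 9 arrays. At day 3 it was at 3.90, 4.40, 3.89 and 4.03 on TSN arrays and at 4.67, 4.75, 4.77 and 4.94 on CON arrays. The distance between the arms was thus wider at day 9, with a change of -1.33 (SE 0.249, adjusted p = 0.00108). miR-712-5p was at -1.33 (SE 0.4, adjusted p = 0.0232). Its call was lost without TSN day 9 replicate 2 or CON day 3 replicate 2 and in 8 of 16 settings. miR-721, at -1.10 (SE 0.323, adjusted p = 0.0203), was 1 of 5 tested from the miR-130 family to pass (18.9% of all tested). It lost its call without TSN day 9 replicate 2 and in 8 of 16 settings. The lowest change of all was that of miR-338-3p, at -2.36 (SE 0.298, adjusted p = 4.04e-05). It was detected on 1 of 8 control arrays, so the size is not measured. The same holds for miR-466h-3p (-2.10), for miR-7217-5p (-2.04) with 3 of 8 control arrays, and for miR-181d-5p (-1.25) with 1 of 8. miR-466h-3p was 1 of 3 lower calls among 8 tested miRNAs from the Sfmbt2 intron families (15.1% of all tested). miR-181d-5p was the only one of 4 tested from its family to pass (18.9% of all tested). Its sign turned with spike-ins and no scaling. miR-7681-3p (-0.47, adjusted p = 0.0305) was at the floor in every group but TSN day 3, so its size is not measured either. The floor makes levels equal, so the SE and p-value of miRNAs at the floor may be too small. This applies to miR-7681-3p, let-7e-5p and miR-5103 among others.

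**Figure D5:**
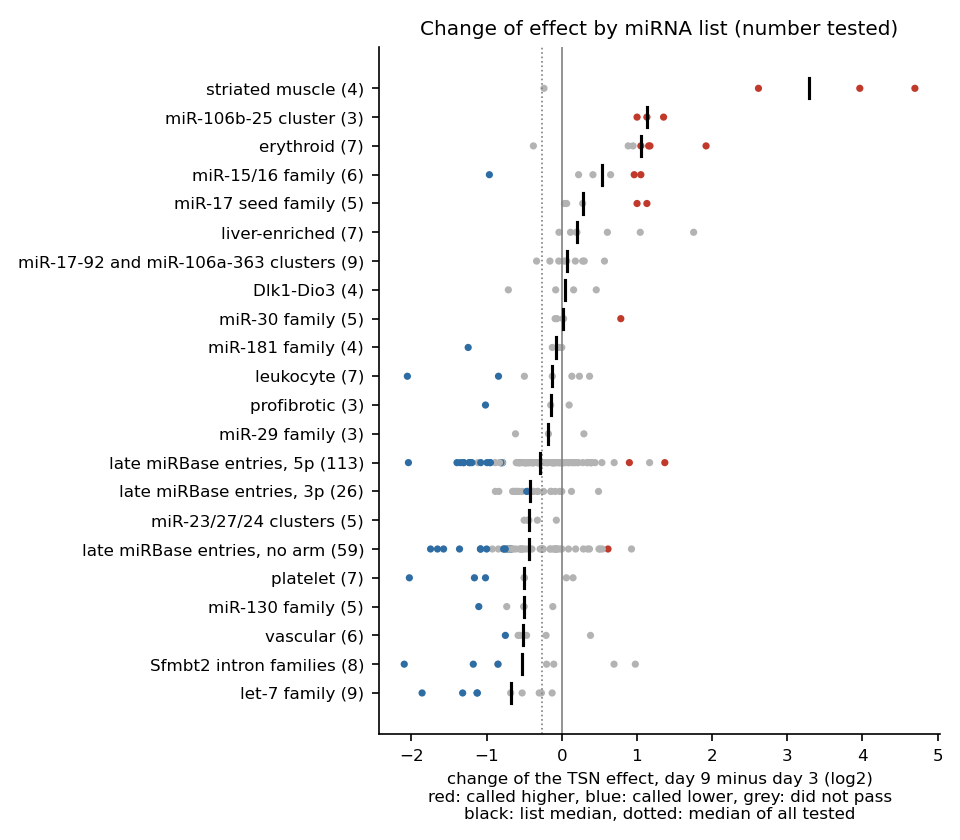
Change of the TSN effect (horizontal axis, log2, day 9 minus day 3) for each tested miRNA of the lists with at least 3 tested members, red for called higher, blue for called lower and grey for not passed, with the list median as a black bar and the median of all 444 as a dotted line. The striated muscle, miR-106b-25 and erythroid lists have medians of 3.29, 1.13 and 1.05, and the let-7 family has the lowest at -0.68.

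The remaining lists held few or no calls. None of the 5 tested miRNAs of the miR-23, miR-27 and miR-24 clusters passed (median -0.44), with miR-24-3p at -0.50 (adjusted p = 0.174), and none of 3 from the miR-29 family (median -0.18, or -0.28 and -0.08 without TSN day 3 replicate 2 and replicate 3), with miR-29b-3p at -0.62 (adjusted p = 0.0548). Both medians turned positive with the 75th percentile over all probes, spike-ins, no scaling or the median scaling, as did that of the brain list, with miR-128-3p at -0.59 (adjusted p = 0.165) as 1 of 2 tested. None of 4 imprinted Dlk1-Dio3 miRNAs passed, with miR-370-3p at -0.71 (adjusted p = 0.0962). The single tested members of the miR-34 and epithelial lists, miR-34a-5p (-0.53, adjusted p = 0.155, but -0.71 with adjusted p = 0.0425 without CON day 9 replicate 3 and -0.26 without CON day 9 replicate 2) and miR-203-3p (0.55, adjusted p = 0.21), did not pass, and no pancreas miRNA could be tested. Of the profibrotic list, miR-21a-5p was the 1 of 3 that passed. Only the adjusted threshold is meant in these counts, and 18.9% of all tested miRNAs passed it.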

How the data were processed

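Serum exosome miRNA was hybridised to one-colour Agilent arrays with Cy3. The scanner files give intensity as deposited; background subtraction was done by the authors' software (Feature Extraction 10.7.1.1, per the file headers), which records no scaling between arrays. The authors' processed values are taken as log2, deposited with no scaling or centring stated, so both are unknown (column medians were 4.37 to 4.40); they served as an alternative.

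Control and outlier spots were dropped and each probe's spots averaged (4415 probes, 1881 miRNAs). Arrays were scaled to the 75th percentile over 261 probes, floored at 0.0135 and put on log2; the probe with the highest mean stood for a miRNA. A miRNA counted as detected (well above background) where the software said so for more than a 0.5 share of a probe's spots. One limma fit (limma 3.58.1, R 4.3.3) covered 24 arrays in 6 groups, so that all groups share 1 spread; tests were two-sided with Benjamini-Hochberg adjustment over 444 miRNAs. The script was tested on simulated data. Array measures were tested by exact permutation of day labels within arms (4900 allocations).

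The p-values rest on the spread between samples that may be technical replicates, and the number of arrays limits precision. Named were the miR-106b-25 miRNAs, the 10 highest and 10 lowest calls measured on all 16 arrays, the 4 highest and 4 lowest other calls, and each list's smallest adjusted p; others named from lists were chosen after their values were seen. The members and the 26 lists were chosen with earlier results of these data known. Alternatives changed the scaling, background correction, probe summary, floor, filter, samples and variance model.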

Additional observations from a re-analysis of the deposited data

Results flagged for a closer look

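Dixon's test was run on 176 groups of 4 arrays, most of them formed by the named miRNAs. It compared the array farthest from the others with the spread of its group. An array passed in 15 groups, and chance flags about 1 group in 20. Among CON day 3 arrays, the array far below the rest was found for miR-486a-5p on replicate 4 (1.64, nearest 1.94), miR-26a-5p on replicate 1 (-3.68, nearest -3.28) and miR-486b-3p on replicate 4 (-3.85, nearest -3.50). Among CON day 3 arrays, the array far above the rest was found for miR-3963 on replicate 1 (3.41, nearest 2.88), miR-466h-3p on replicate 4 (-5.83, nearest -6.21), miR-29b-3p on replicate 2 (-1.28, nearest -1.49), miR-203-3p on replicate 1 (-5.40, nearest -6.09) and miR-5103 on replicate 4 (-6.13, nearest -6.21). Among CON day 9 arrays, the array far below the rest was found for miR-7040-5p on replicate 2 (-1.31, nearest -1.11) and miR-24-3p on replicate 3 (-0.0632, nearest 0.35). Among CON day 9 arrays, the array far above the rest was found for miR-140-3p on replicate 3 (-0.59, nearest -0.80) and miR-26b-5p on replicate 4 (-2.24, nearest -2.53). On TSN arrays, the array far below the rest was found for miR-1a-3p on TSN day 3 replicate 4 (-5.63, nearest -5.05) and miR-486b-3p on TSN day 9 replicate 3 (-4.51, nearest -4.34). On TSN arrays, the array far above the rest was found for miR-466h-3p on TSN day 9 replicate 3 (-6.18, nearest -6.21). In 3 of the 15 groups, those of miR-466h-3p and miR-5103, the other arrays sat at the floor, so the test has no reading there.

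The effect of TSN differed between days 9 and 3 for 34 of the 42 named miRNAs by the interaction term of the limma fit, at an adjusted threshold of 0.05 over 444 miRNAs, in which 18.9% passed. Most of the 42 were named because they passed this test or had the smallest adjusted p-value of a list. The count of 34 therefore follows from the choice and cannot be read against the 18.9%. On the log2 scale the change was higher at day 9 for miR-133b-3p (4.70), miR-133a-3p (3.97), miR-1a-3p (2.62), miR-486a-5p (1.92), miR-6931-5p (1.37), miR-25-3p (1.35), miR-486b-3p (1.17), miR-93-5p (1.13), miR-16-5p (1.05), miR-106b-5p (1.00), miR-15a-5p (0.96), miR-7040-5p (0.90), miR-140-3p (0.85), miR-30a-5p (0.79) and miR-5103 (0.61). It was lower at day 9 for miR-338-3p (-2.36), miR-466h-3p (-2.10), miR-142a-3p (-2.05), miR-7217-5p (-2.04), miR-26a-5p (-2.03), let-7e-5p (-1.86), miR-3963 (-1.75), miR-7020-5p (-1.39), miR-5100 (-1.36), miR-709 (-1.33), miR-712-5p (-1.33), let-7f-5p (-1.32), miR-6995-5p (-1.31), miR-26b-5p (-1.27), miR-181d-5p (-1.25), miR-721 (-1.10), miR-21a-5p (-1.02), miR-126a-3p (-0.75) and miR-7681-3p (-0.47). The sizes of miRNAs whose control or TSN day 9 arrays were below background or at the floor, described above, are not measured. The p-values of those at the floor rest in part on levels made equal by it.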

How the results depend on the processing

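Against 17 higher and 67 lower calls, the settings that moved a count by more than 1.5 times gave, higher and lower, 31 and 4 (75th percentile over all probes), 31 and 36 (quantile normalization), 16 and 6 (4 spike-in probes), 13 and 8 (no scaling), 26 and 15 (authors' values), 7 and 13 (normexp), 7 and 13 (total gene signal), 11 and 31 (no filter), 13 and 32 (only miRNAs measured on all 16 arrays), 25 and 109 (array weights) and 69 and 29 (median of the miRNAs measured on all 16 arrays, chosen after seeing the data). Averaging a miRNA's probes, halving the floor, a fit of the 16 arrays alone and a trended robust variance stayed within 1.5 times. Of the 84 calls, 19 were kept with the 75th percentile over all probes, 45 with quantile normalization, 9 with spike-ins, 7 with no scaling, 26 with the authors' values, 20 with normexp, 17 with the total gene signal and 46 with median scaling. Values of single miRNAs were compared relative to the median miRNA where a setting moved it by more than 0.1. Of the 42 named miRNAs, miR-486b-3p (-0.24) and miR-5103 (-8.40, at the floor in controls) then reversed, both with the total gene signal. On the same basis, over all 84 calls, 12 turned sign with the total gene signal, 1 with normexp and 1 with the 16 arrays alone. Not taken relative to the median miRNA, 12 turned with the total gene signal, 6 with no scaling and 3 with spike-ins. In that count 2 turned with the 75th percentile over all probes, 2 with normexp, 1 with the authors' values and 1 with the 16 arrays alone. Some named miRNAs without a call gained one: miR-203-3p and miR-101a-3p in 4 settings each, miR-29b-3p with the mean of its probes (adjusted p = 0.00733), the 16 arrays alone (0.00314), array weights (0.0226) or without CON day 9 replicate 3 (0.0426), and miR-370-3p with array weights (0.00376) or without TSN day 9 replicate 3 (0.0279) or TSN day 3 replicate 3 (0.00966). The cause of these differences was not tested. Leaving out 1 array gave 16 to 23 higher and 46 to 96 lower calls, and a change of the brightness gap between 0.44 and 1.103, which passed only without CON day 9 replicate 3 (exact permutation p = 0.0278); the gap in miRNAs well above background changed by 3.25 to 47.9. List medians near 0 crossed it, at -0.03 to 0.15 for the miR-17 and miR-106a clusters, -0.07 to 0.07 for the miR-30 family and -0.12 to 0.20 for Dlk1-Dio3. Other list medians that moved by more than 1.5 times were those of liver-enriched miRNAs (0.12 without TSN day 9 replicate 4 to 0.37 without TSN day 9 replicate 3), profibrotic miRNAs (-0.38 without TSN day 3 replicate 1 to -0.03 without CON day 9 replicate 2), the miR-181 family (-0.11 to -0.05, without TSN day 3 replicates 1 and 2), the miR-29 family (-0.28 to -0.08), leukocyte miRNAs (-0.17 to -0.07) and miR-34a-5p (-0.71 to -0.26).

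With the replicate number, which is the column on the slide, as a block, 17 were higher and 60 lower, and 76 of the 84 calls were kept; of the named calls, that of miR-126a-3p was lost. Deviations of same-numbered arrays correlated above 0.1 in all 4 pairs of TSN day 9 with CON day 9 (0.202 to 0.353 over 444 miRNAs, each array matching its own number best), but in 0 to 2 of 4 pairs for the other 5 pairings of groups. Over the 154 miRNAs detected on all 16 arrays, this held in 2 of 4 pairs of TSN day 9 with CON day 9, in 3 of 4 of CON day 9 with CON day 3, and in 0 or 1 otherwise, so the numbers do not pair the 4 groups. The slide as a block was not run. TSN day 3 and TSN day 9 lay on different slides that no group has in common, so the contrast cannot be estimated. The TSN day 9 slide also held the TSN day 21 arrays. Control arrays were dim, and miRNAs below background in both control days (4 of the higher and 13 of the lower calls) have no measured size of change.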
